A study of Mus musculus with 16 samples.

Results

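Fgf21 and 8 related genes of liver-derived hormones (hepatokines) were examined in RNA-sequencing data from mouse liver. The genes were chosen by name, with earlier results of these data known: Fgf21, Klb, Gdf15, Angptl4, Angptl6, Angptl8, Inhbe, Inhbc and Fst. All 9 were found among the 22612 genes measured. Libraries came from 4 diet groups of male C57BL/6 mice, with 4 libraries each. Mice arrived at 7 weeks of age, had 1 week to acclimatise and were then fed for 16 weeks. The chow group ate chow with 11% of energy as fat, and the high-fat group ate a diet with 58% of energy as fat throughout. The chow-alternating group switched between the high-fat diet and chow every 2 weeks. In the ketogenic-alternating group the switch, also every 2 weeks, was between the high-fat diet and a ketogenic diet with 90.5% of energy as fat. Every group was fasted overnight before the liver was taken. The labels name 6 mice per group and give neither the number of animals sequenced nor the diet that came last in the alternating groups.

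FGF21 is a hormone that the liver secretes during fasting, ketogenic feeding and amino acid shortage, and it signals through FGF receptors with beta-Klotho, the product of Klb, as its co-receptor. Its gene is a classical target of the fatty acid sensor PPAR alpha and of ATF4, the transcription factor of the integrated stress response. GDF15 is a stress-induced cytokine that lowers food intake through the receptor GFRAL in the brainstem. ANGPTL4 and ANGPTL8 restrain lipoprotein lipase in fasting and after feeding respectively, and ANGPTL6 is a related secreted protein. Inhbe and Inhbc encode the beta E and beta C subunits of the activin family, which the liver makes in abundance, and follistatin, the product of Fst, binds and neutralises activins.

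In the mm10 genome build Fgf21 lies at chr7:45613886-45615490 and has 3 exons. RefSeq promoters (build GRCm38.p6) were matched for 7 of the 9 genes, those other than Angptl4 and Fst. Gdf15 has a pair of start sites, which makes 8 promoters, and the 250 bases before the start site were searched on both strands for 4 short motifs. Motif letters are AGGTCA for the nuclear receptor hexamer, CACGTG for the E-box, TGACG for the cyclic AMP response element core and TGATGNA for the amino acid response element core, the last being the kind of site that ATF4 uses. None of these motifs contains another. The 3 promoters below are printed because they belong to stress- or feeding-regulated hormones in this set, hold the TGATGNA core and lie outside annotated exons. The Gdf15 promoter shown precedes a RefSeq start that lies 361 bases beyond the end of the gene in the deposited table. The sequences read 5′ to 3′ along the gene's strand up to the base before the start site, and capitals mark motif matches on either strand.
Fgf21, chr7:45615491-45615740, minus strand: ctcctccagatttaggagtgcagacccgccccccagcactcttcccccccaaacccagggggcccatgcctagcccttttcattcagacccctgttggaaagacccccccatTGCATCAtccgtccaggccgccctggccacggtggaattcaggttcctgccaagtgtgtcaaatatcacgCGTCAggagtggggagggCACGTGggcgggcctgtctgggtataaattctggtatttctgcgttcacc
Angptl8, chr9:21835260-21835509, plus strand: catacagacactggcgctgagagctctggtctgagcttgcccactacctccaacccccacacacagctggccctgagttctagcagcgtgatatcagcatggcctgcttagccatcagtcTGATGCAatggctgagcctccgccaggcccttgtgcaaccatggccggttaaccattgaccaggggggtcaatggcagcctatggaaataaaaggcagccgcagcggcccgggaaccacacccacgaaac
Gdf15, chr8:70632457-70632706, minus strand: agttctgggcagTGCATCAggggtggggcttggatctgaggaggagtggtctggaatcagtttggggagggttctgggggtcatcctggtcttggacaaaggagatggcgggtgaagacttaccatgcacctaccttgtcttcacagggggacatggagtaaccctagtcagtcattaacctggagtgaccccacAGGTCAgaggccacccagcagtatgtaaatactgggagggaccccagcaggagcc
The TGATGNA core begins 138 bases before the start site of Fgf21, 130 before that of Angptl8 and 238 before that of Gdf15. With a match 180 bases before the RefSeq start of Inhbe, 4 of the 8 promoters hold the core. That Inhbe start lies 2563 bases inside the gene of the deposited table, and an Inhbe exon reaches into the bases searched. The other Gdf15 promoter, whose start is that of the gene in the deposited table, holds no match to the core. The motif letters were chosen after the data were seen. Among all 32851 mouse promoters of the same length, 10.4% hold the TGATGNA core. The Fgf21 promoter also has TGACG (17.8% of all promoters) at 68 bases and CACGTG (6.02%) at 50 bases before the start. In the Gdf15 promoter shown, AGGTCA (14.0%) lies at 55 bases. Binding of any factor was not measured.

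Values are TPM, transcript abundances corrected for length and scaled to a sum of 1000000 in each library, so levels can be set side by side between genes. The 20 most abundant genes held 27.08% to 38.82% of the TPM of a library. Chow libraries 2 and 3 and high-fat libraries 1 and 2 were above 33%, and all 4 ketogenic-alternating libraries were at or below 29.47%. Hepatocyte markers summed to between 81936.9 and 119190.7 TPM per library, a range that the high-fat group spanned. The sums were 82463.2 to 89275.1 TPM in ketogenic-alternating, 89560.2 to 100794.0 in chow and 101660.8 to 111209.2 in chow-alternating libraries. By this sum every ketogenic-alternating library was thus below every chow and chow-alternating library. Exocrine pancreas markers, checked because pancreas also makes FGF21, summed to at most 2.47 TPM, with Prss1, Pnlip, Ctrb1 and 3 others below 0.1 TPM on average in every group. Adipocyte markers summed to at most 39.5 TPM, with Adipoq, Lep, Plin1 and Retn below 0.1 TPM on average over the 16 libraries. Adipoq reached 0.921 TPM in its highest library. Of the other adipocyte markers Adrb3 averaged 13.0 TPM, Fabp4 11.0 TPM and Cidea 0.16 TPM. In whole liver, fewer cells of a type and less RNA per cell cannot be told apart.

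Over the 16 libraries the most abundant of the 9 transcripts was Angptl4, with a mean of 101.6 TPM, followed by Angptl8 (65.8 TPM), Inhbc (38.4 TPM), Inhbe (21.5 TPM), Angptl6 (19.1 TPM), Fgf21 (15 TPM), Klb (13.4 TPM), Gdf15 (8.80 TPM) and Fst (1.56 TPM). Fgf21 varied the most, with a highest library 26.4 times its lowest, whereas Angptl6 varied 2.08-fold. Fst reached 1 TPM in 7 of the 16 libraries. In a moderated F-test for any difference over the 4 diets (limma, Benjamini-Hochberg adjustment over 11450 genes), 3 of the 9 genes passed: Fgf21 (adjusted p = 0.00326), Inhbe (adjusted p = 0.0188) and Angptl4 (adjusted p = 0.0279). Of all genes tested, 3.87% passed. Fgf21 passed without any single library, at adjusted p up to 0.0145. Inhbe missed the threshold without ketogenic-alternating library 1 (0.0557) or 4 (0.052), and Angptl4 without chow library 2 (0.0971), 3 (0.0564) or 4 (0.109). Angptl8, at 0.0706 with all libraries, passed without high-fat library 1 (0.0302) or ketogenic-alternating library 4 (0.0309).

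**Figure D1:**
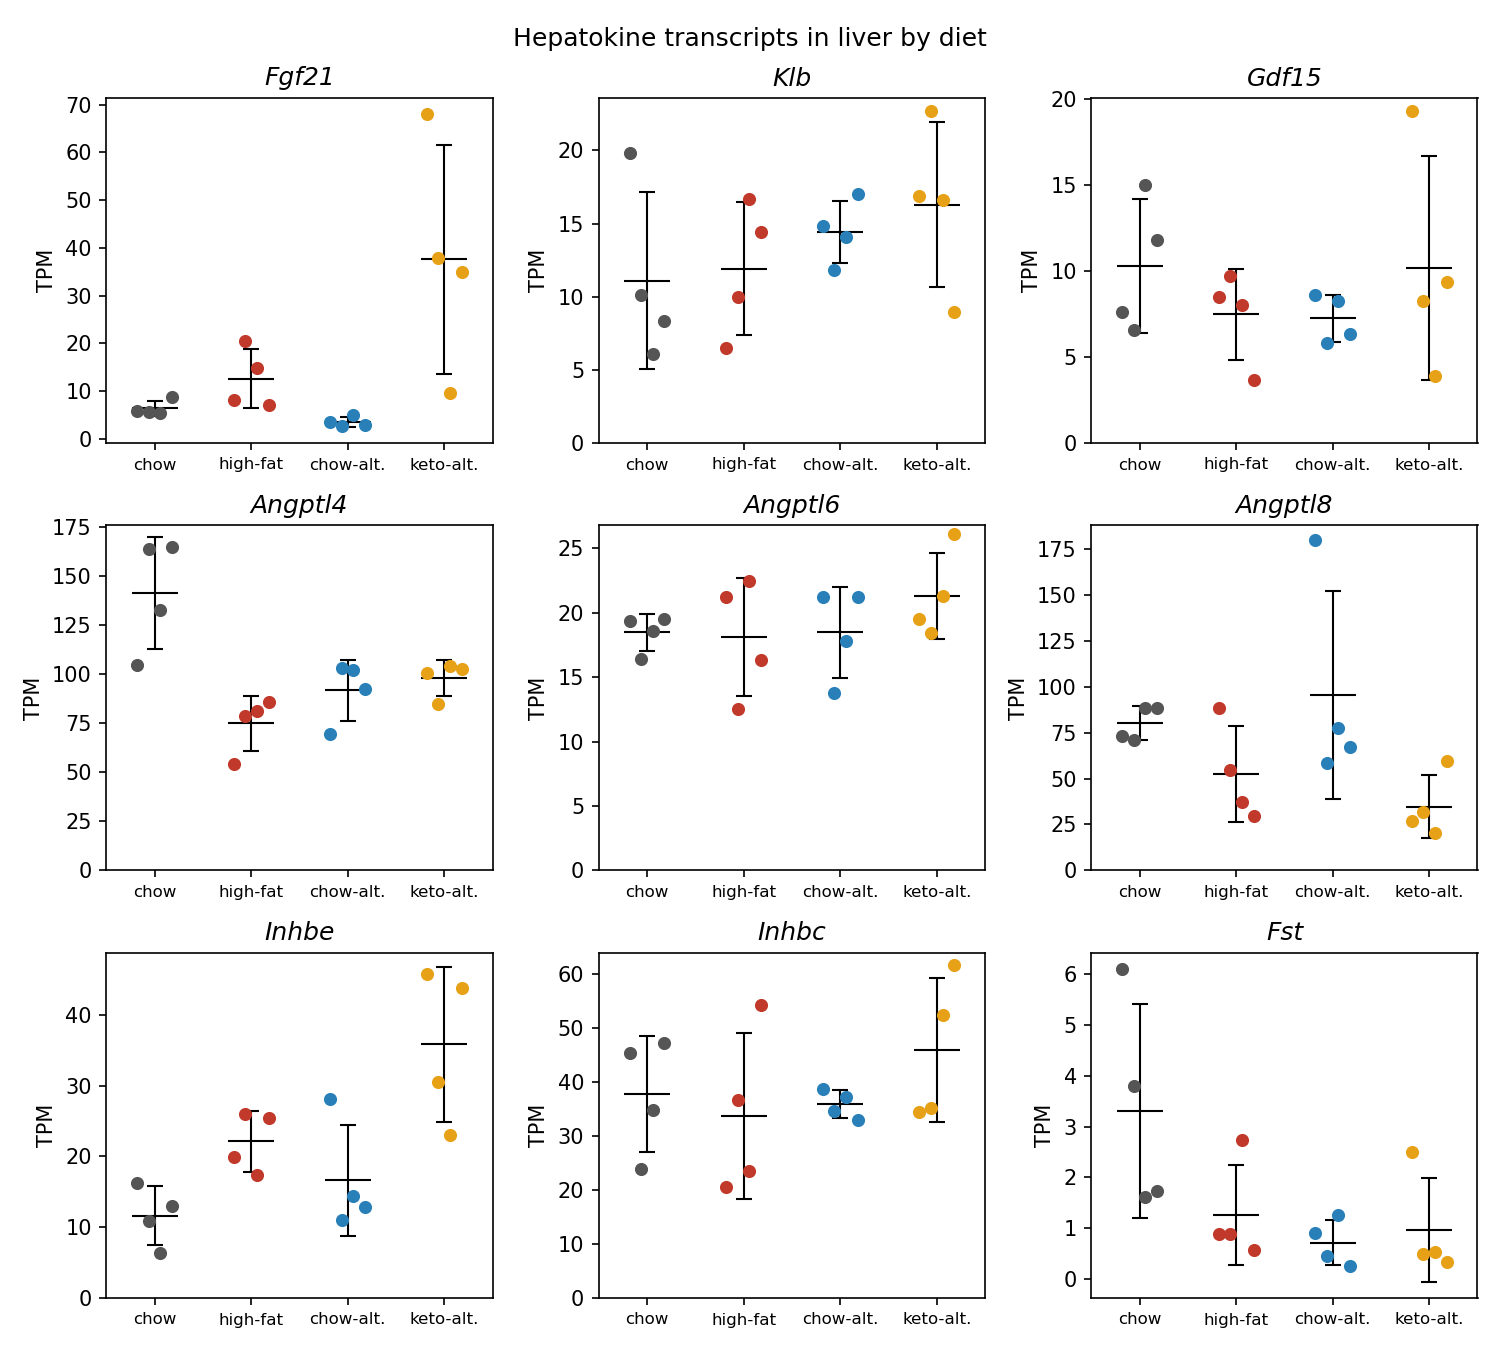
Level of each hepatokine gene in TPM (vertical axes, linear) by diet group (horizontal axes; chow-alt. and keto-alt. are the chow-alternating and ketogenic-alternating groups). Points are libraries, and lines with bars are the mean ± SD of 4 libraries. Fgf21 spans 9.65 to 68.1 TPM in the ketogenic-alternating group and 2.58 to 4.89 TPM in the chow-alternating group.

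Fgf21 was highest in the livers of the ketogenic-alternating group and lowest in those of the chow-alternating group, an 11.0-fold difference between the means. Its levels were 68.1, 37.8, 9.65 and 34.9 TPM in ketogenic-alternating libraries 1 to 4, and 3.40, 2.58, 4.89 and 2.85 TPM in the chow-alternating libraries. These groups did not overlap, although ketogenic-alternating library 3 stood well below the other libraries of its group. Fgf21 rose by 2.87 on the log2(TPM + 1) scale in the ketogenic-alternating against the chow-alternating group (SE 0.451, 95% interval 1.87 to 3.87, limma adjusted p = 0.0089, n = 4 per group). The call held under all 15 alternative settings that apply to this comparison, with values from 2.50 to 3.40.

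The chow libraries had 5.83, 5.64, 5.35 and 8.70 TPM of Fgf21, all below the lowest ketogenic-alternating library. Fgf21 rose 5.90-fold between the means against chow, from 6.38 ± 1.56 to 37.6 ± 24.0 TPM (SD, n = 4), or by 2.13 on the log2 scale (SE 0.442, limma adjusted p = 0.0194). Without ketogenic-alternating library 2 the adjusted p was 0.0726, without chow library 2 it was 0.0574 and without chow library 3 it was 0.0553. With chow libraries 2 and 3 both left out, the log2 difference was 1.97 (adjusted p = 0.168). The difference stayed between 1.76 and 2.66 in every setting, whereas the call did not hold in 5 of 16.

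The high-fat libraries had 8.12, 20.4, 14.8 and 7.0 TPM of Fgf21, spread across the upper chow and the lower ketogenic-alternating values. Fgf21 in the ketogenic-alternating group was 2.99 times the high-fat mean, but the groups overlapped and the log2 difference of 1.34 (95% interval 0.27 to 2.42) did not pass (limma adjusted p = 0.486, unadjusted p = 0.0185). The chow-alternating libraries were all below the high-fat ones, with a log2 difference of -1.53 (SE 0.30) that had an unadjusted p of 2.88e-04 and a limma adjusted p of 0.313. That p ranked 10 among 10899 genes in a comparison where 5 genes in all passed. They were also all below the chow libraries (-0.74, SE 0.201, limma adjusted p = 0.127), and high-fat against chow gave 0.79 (SE 0.307, limma adjusted p = 0.331). From low to high the group means of Fgf21 were 3.43 ± 1.03 in chow-alternating, 6.38 ± 1.56 in chow, 12.6 ± 6.27 in high-fat and 37.6 ± 24.0 TPM in ketogenic-alternating livers (SD, n = 4), and no neighbours in that order passed the test.

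Klb, the co-receptor gene at chr5:65348314-65384007, differed among diets by less than its spread. Its libraries had 19.8, 10.1, 6.10 and 8.36 TPM on chow and 6.49, 10, 16.7 and 14.4 TPM on high fat. Chow-alternating livers had 14.8, 11.8, 14.1 and 17 TPM, and ketogenic-alternating livers 16.9, 22.7, 16.6 and 8.95 TPM. The means went from 11.1 on chow through 11.9 on high fat and 14.4 in chow-alternating to 16.3 TPM in ketogenic-alternating livers. All pairs of groups overlapped, and the largest difference, ketogenic-alternating against chow, was 0.57 on the log2 scale (95% interval -0.16 to 1.29, limma adjusted p = 0.329). Of 16 tested genes for FGF21 receptors and regulators, 1 rose in the ketogenic-alternating group against chow, where 5% of all genes passed. It was Nr1d1, the clock repressor REV-ERB alpha, at 63.2 ± 7.20 against 21.2 ± 11.0 TPM (SD, n = 4; limma adjusted p = 0.0263), and after median-centring of the libraries it no longer passed. In the other 5 comparisons 0 of 16 passed in limma, with 2 to 5 genes at an unadjusted p below 0.05, and after median-centring 1 was lower in ketogenic-alternating against chow-alternating.

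Gdf15, at chr8:70629393-70632095, showed no difference among diets beyond its spread. It had 7.65, 6.58, 15 and 11.8 TPM on chow and 8.49, 9.72, 8.03 and 3.67 TPM on high fat. The chow-alternating libraries had 8.59, 5.84, 8.26 and 6.33 TPM, and the ketogenic-alternating libraries 19.3, 8.25, 3.90 and 9.34 TPM. The highest and the next to lowest values of all 16 libraries both came from the ketogenic-alternating group. The means were 7.26 in chow-alternating, 7.48 on high fat, 10.2 in ketogenic-alternating and 10.3 TPM in chow livers. No comparison in limma had an unadjusted p below 0.05, and the log2 difference of ketogenic-alternating against chow was -0.12 (95% interval -0.95 to 0.70). Of 4 tested genes for the processing and induction of GDF15 (Egr1, Furin, Mmp14 and Trp53), 1 rose in that comparison, where 5% of all genes passed: Egr1, an immediate early transcription factor, at 9.76 ± 5.87 against 2.30 ± 1.40 TPM (limma adjusted p = 0.0278). The genes of its receptor, Gfral and Ret, did not pass the low-value filter. In the other 5 comparisons 0 of 4 passed in limma, with 0 to 2 at an unadjusted p below 0.05.

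Of the integrated stress response targets, the gene group that ATF4 drives, 13 were tested in the ketogenic-alternating group against chow, with 1 higher and 1 lower, where 3.67% of all genes were higher and 1.33% lower. Trib3, a pseudokinase that inhibits AKT, rose from 6.85 ± 1.07 to 16.5 ± 2.83 TPM (SD, n = 4; limma adjusted p = 0.00369). Slc3a2, the heavy chain of amino acid transporters, fell from 33.1 ± 1.08 to 22 ± 1.93 TPM (limma adjusted p = 0.0257). After median-centring the counts were 1 higher and 3 lower, after rescaling without the most abundant and mitochondrial genes 1 and 2, and without chow libraries 2 and 3 they were 1 and 0. In high-fat against chow, where 1.06% of all genes passed, 1 of 11 fell, Ppp1r15a, a phosphatase subunit that reverses the response (4.56 ± 1.02 against 10.2 ± 1.66 TPM, limma adjusted p = 0.0402), with 2 after rescaling and 0 without the 4 libraries above 33%. In the other 4 comparisons none of the 10 to 12 tested passed in limma, with 1 to 3 at an unadjusted p below 0.05. In chow-alternating against chow 1 was lower after median-centring, 2 after rescaling and 1 without chow libraries 2 and 3.

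Angptl4, the fasting-induced lipase inhibitor at chr17:33773750-33781575, was highest on chow. The chow libraries had 104.8, 163.7, 132.6 and 164.7 TPM, and the high-fat libraries 54.2, 78.8, 81.4 and 85.6 TPM. Chow-alternating libraries had 69.6, 103.1, 102.2 and 92.6 TPM, and ketogenic-alternating libraries 100.4, 84.8, 104.1 and 102.9 TPM. Every chow library was above every library of the other groups, by a narrow margin for chow library 1. The difference from chow was -0.90 on the log2 scale for high-fat (SE 0.203, limma adjusted p = 0.0686), -0.61 for chow-alternating (SE 0.177, adjusted p = 0.157) and -0.51 for ketogenic-alternating livers (SE 0.162, adjusted p = 0.101), so none of the 3 passed as a pair. These comparisons share the chow libraries. Without chow library 1, the lowest of its group, all 3 passed, at limma adjusted p of 0.0393, 0.0393 and 0.0158. Other omissions went the other way. High-fat against chow had a limma adjusted p of 0.233 without chow library 2 and 0.264 without chow library 4. Without the libraries above 33% it was -0.65 (0.422), and ketogenic-alternating against chow was -0.42 (0.346). A single fit to all 16 libraries called the difference between high-fat and chow (adjusted p = 0.00812). From low to high the means were 75.0 ± 14.1 on high fat, 91.8 ± 15.6 in chow-alternating, 98 ± 8.99 in ketogenic-alternating and 141.4 ± 28.6 TPM in chow livers (SD, n = 4), and no neighbours in that order passed.

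Angptl8, at chr9:21835510-21837347 within Dock6, which runs on the opposite strand and shares none of its exon bases, fell in the ketogenic-alternating group against chow. Chow libraries had 73.4, 71.1, 88.4 and 88.2 TPM, all above the 27.1, 32.0, 20.5 and 59.4 TPM of the ketogenic-alternating libraries. The difference was -1.29 on the log2 scale (SE 0.262, 95% interval -1.86 to -0.71, limma adjusted p = 0.0176), with means of 80.3 ± 9.34 and 34.7 ± 17.1 TPM (SD, n = 4). The adjusted p exceeded 0.05 without ketogenic-alternating library 1 (0.0564), 2 (0.0632) or 3 (0.0549), without chow library 4 (0.0563), and without chow libraries 2 and 3 together (0.115). The high-fat libraries were widely spread, at 88.6, 54.5, 37.5 and 29.6 TPM, and so were the chow-alternating ones, at 179.6, 58.3, 77.6 and 67.0 TPM. Against the chow-alternating group the ketogenic-alternating group was lower by a log2 difference of -1.39 (SE 0.368) that did not pass (limma adjusted p = 0.0546), and it passed without ketogenic-alternating library 4 (0.0146). From low to high the means were 34.7 in ketogenic-alternating, 52.6 on high fat, 80.3 on chow and 95.6 TPM in chow-alternating livers, and no neighbours in that order passed.

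Angptl6, at chr9:20873808-20879727, was the steadiest of the 9 genes. Its libraries spanned 16.4 to 19.5 TPM on chow, 12.5 to 22.5 on high fat, 13.8 to 21.2 in the chow-alternating and 18.4 to 26.1 in the ketogenic-alternating group. The means lay between 18.1 and 21.3 TPM, and the largest log2 difference was 0.25, for ketogenic-alternating against high-fat livers (95% interval -0.19 to 0.68, limma adjusted p = 0.557). A total of 265 of its 1582 exon bases overlap A230050P20Rik on the opposite strand (39.7 TPM on average), and whether reads were assigned by strand is not given in the sources used here.

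Among 11 tested genes for other ANGPTL proteins, lipases and their cofactors, 3 rose and 1 fell in the ketogenic-alternating against the chow-alternating group, where 5.04% of all genes passed. Apoc3, an apolipoprotein that slows triglyceride clearance, fell from 5923 ± 510.3 to 4244 ± 535.4 TPM (limma adjusted p = 0.0399). Lipg, endothelial lipase, rose from 3.62 ± 1.18 to 8.49 ± 1.85 TPM (limma adjusted p = 0.0186), and Pcsk6, a convertase that cleaves lipases and ANGPTL proteins, from 32.6 ± 2.51 to 47.7 ± 4.3 TPM (limma adjusted p = 0.0159). Gpihbp1, which anchors lipoprotein lipase to the capillary wall, rose from 21.5 ± 3.97 to 32.6 ± 3.83 TPM (limma adjusted p = 0.0413). After median-centring the counts were 0 higher and 1 lower, and after rescaling 2 and 0. Against chow, Lipg was higher (limma adjusted p = 0.0174) in the ketogenic-alternating group, out of 11 tested, and 0 were lower, where 5% of all genes passed. In the other 4 comparisons 0 of 11 passed in limma, with 0 to 5 at an unadjusted p below 0.05, and without chow libraries 2 and 3 there was 1 lower in chow-alternating against chow.

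Inhbe, which encodes the activin beta E subunit at chr10:127348857-127354411, rose 3.08-fold between the means in the ketogenic-alternating group against chow. Its chow libraries had 16.2, 10.9, 6.32 and 13.0 TPM, and its ketogenic-alternating libraries 45.8, 30.5, 23.0 and 43.8 TPM. The groups did not overlap, and the difference was 1.56 on the log2 scale (SE 0.279, 95% interval 0.95 to 2.17, limma adjusted p = 0.00969). The call held without any single library, at adjusted p up to 0.0335, and did not hold without chow libraries 2 and 3 together (1.19, adjusted p = 0.0721).

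The high-fat libraries had 19.9, 26.0, 17.3 and 25.4 TPM of Inhbe, also all above chow (0.93, SE 0.261, limma adjusted p = 0.167). The chow-alternating libraries had 28.1, 11.0, 14.4 and 12.8 TPM, of which library 1 lay inside the ketogenic-alternating range and the other 3 inside the chow range. The ketogenic-alternating group was higher than the chow-alternating group by 1.1 (SE 0.284, limma adjusted p = 0.0511), which passed without chow-alternating library 1 (0.0142), ketogenic-alternating library 3 (0.0459) or 4 (0.0476). Against high-fat livers the difference was 0.64 (SE 0.228, limma adjusted p = 0.486). From low to high the means were 11.6 ± 4.15 on chow, 16.6 ± 7.82 in chow-alternating, 22.1 ± 4.25 on high fat and 35.8 ± 10.9 TPM in ketogenic-alternating livers (SD, n = 4), and no neighbours in that order passed.

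Inhbc lies 1910 bases from Inhbe, at chr10:127356322-127370431 on the same strand, and passed in none of the comparisons. Its libraries had 45.4, 23.9, 34.9 and 47.2 TPM on chow and 20.6, 36.7, 23.6 and 54.3 TPM on high fat. Chow-alternating livers had 38.8, 34.6, 37.2 and 33 TPM, and ketogenic-alternating livers 34.5, 35.3, 52.5 and 61.8 TPM. The means were 33.8 on high fat, 35.9 in chow-alternating, 37.8 on chow and 46.0 TPM in ketogenic-alternating livers. All pairs of groups overlapped, no unadjusted p was below 0.05, and ketogenic-alternating against chow gave 0.28 (95% interval -0.26 to 0.82, limma adjusted p = 0.511). Whether the differences of Inhbe and Inhbc differ from each other was not tested.

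Fst, which encodes the activin antagonist follistatin at chr13:114452262-114458949, was at a low level outside the chow group. The chow libraries had 6.11, 3.79, 1.62 and 1.74 TPM. High-fat livers had 0.888, 0.884, 2.73 and 0.560 TPM, chow-alternating livers 0.903, 0.449, 1.25 and 0.259 TPM, and ketogenic-alternating livers 2.50, 0.490, 0.525 and 0.341 TPM. It entered the comparisons with chow only because the chow libraries, where it was high, carried it past the low-value filter, so its differences are given without a test. On the log2 scale, which understates changes near 1 TPM, they were -1.24 for chow-alternating, -1.13 for ketogenic-alternating and -0.89 for high-fat livers. Of these groups the chow-alternating one lay wholly below chow, and the others overlapped it. In the list of activin receptors, SMADs and inhibitors 0 of 13 tested genes passed in any comparison in limma, with 0 to 3 at an unadjusted p below 0.05, and 1 passed after median-centring in ketogenic-alternating against chow and after rescaling in chow-alternating against chow. The most abundant were Smad4 (11.4 TPM) and Smad2 (7.35 TPM), the shared and a receptor-activated signal transducer, with lowest adjusted p of 0.433 and 0.141.

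Fst is left out of the counts that follow. The ketogenic-alternating group differed from chow in 3 of the 8 other genes (Fgf21 and Inhbe higher, Angptl8 lower), each by more than 2-fold. Of all genes tested in limma 5% passed there, 3.67% higher and 1.33% lower. In the ketogenic-alternating against the chow-alternating group 1 of 8 passed, Fgf21, against 5.04% of all genes (4.31% higher). In limma 0 of 8 passed in high-fat against chow (1.06% of all genes), 0 of 8 in chow-alternating against high-fat (0.0459%), 0 of 8 in ketogenic-alternating against high-fat (0.036%) and 0 of 8 in chow-alternating against chow (1.16%). At an unadjusted p below 0.05 those 4 comparisons had 4, 2, 3 and 2 of the genes. The share of all genes below that cut was not counted. In high-fat against chow a limma p of 0.0287 (Angptl8) ranked 910 among 10960 genes. In ketogenic-alternating against high-fat 0.0348 (Angptl4) ranked 777 among 11108. Unadjusted counts, here and for the gene lists, are therefore no result about the sets. In comparisons with few calls among all genes, an absence of calls in the set is no result about the set.

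Groups did not overlap for 4 of 8 genes in ketogenic-alternating against chow (13.3% of all genes tested), for 2 of 8 in chow-alternating against chow (8.48%) and for 2 of 8 in high-fat against chow (8.22%). The number was 1 of 8 in ketogenic-alternating against chow-alternating (16.8%), 1 of 8 in chow-alternating against high-fat (3.02%) and 0 of 8 in ketogenic-alternating against high-fat (6.85%). The median log2 difference of all genes was 0.186 in ketogenic-alternating against chow-alternating, 0.207 against high-fat and 0.152 against chow, beside 0.239, 0.415 and 0.234 for the 8 hepatokine genes. After median-centring, which removes that shift, Fgf21 was 2.70 higher than in the chow-alternating group (limma adjusted p = 0.0155) and 1.98 higher than in chow (0.0283). Inhbe was then 1.41 higher (0.00827) and Angptl8 lower by a log2 difference of -1.45 (0.0244) against chow. The share of called genes that were higher went from 85.6% to 43.3% against the chow-alternating group and from 73.3% to 55.8% against chow with that centring.

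**Figure D2:**
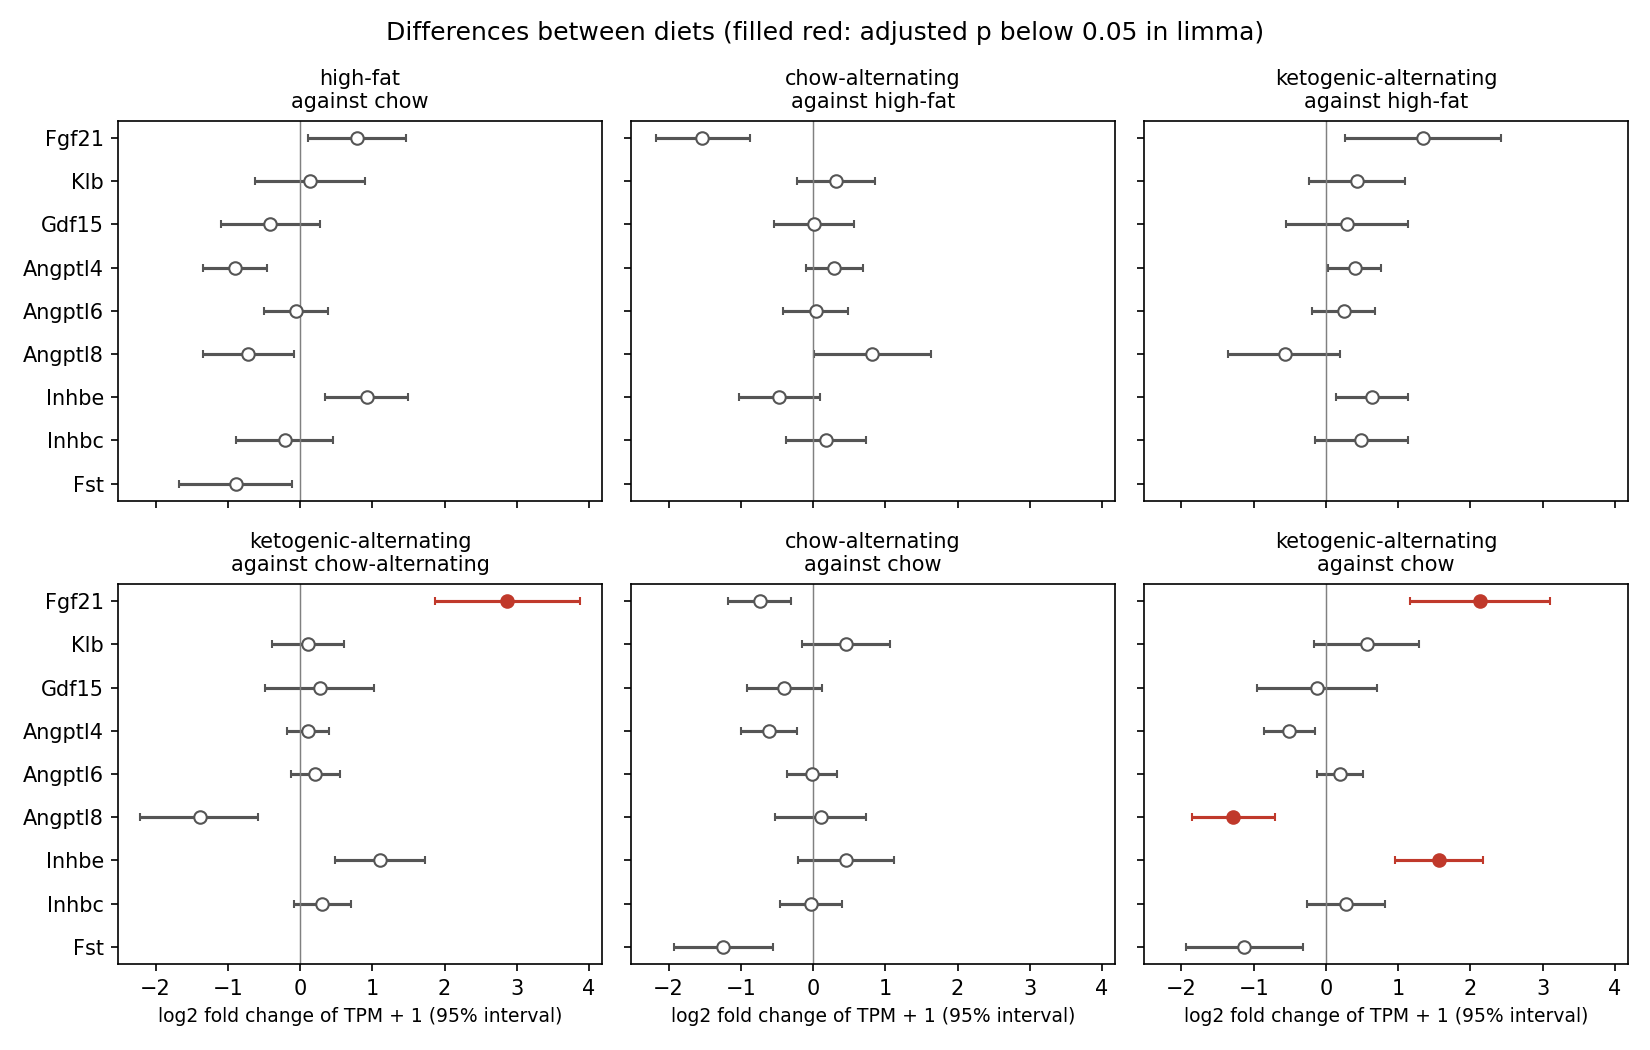
Log2 fold change of TPM + 1 (horizontal axes) of each hepatokine gene in the 6 comparisons between diets, each of 4 against 4 libraries; bars are 95% intervals from limma and filled red points have an adjusted p below 0.05. Fgf21 is the only filled point in ketogenic-alternating against chow-alternating livers (2.87), and Fgf21, Angptl8 and Inhbe are filled against chow. Fst has no point where it did not pass the low-value filter, and its other points passed it through the chow libraries alone.

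Of 20 genes listed as PPAR alpha targets, such as those of fatty acid oxidation and lipid droplets, 10 were higher in ketogenic-alternating than in chow-alternating livers. In the same comparison 0 were lower, where 5.04% of all genes passed. The median log2 difference of the list was 0.605, beside 0.186 for all genes. After median-centring 6 were higher and 1 lower, and after rescaling 8 and 0. Activity of PPAR alpha was not measured. Cidec, a lipid droplet fusion protein, rose from 2.32 ± 0.662 to 38.6 ± 22.4 TPM (SD, n = 4; limma adjusted p = 3.7e-04). Vnn1, a pantetheinase, rose from 24.4 ± 4.43 to 84.2 ± 18.1 TPM (limma adjusted p = 5.22e-04). Acadm, the medium-chain acyl-CoA dehydrogenase, rose from 309.1 ± 31.5 to 563.5 ± 60.2 TPM (limma adjusted p = 0.00329), and Ucp2, a mitochondrial carrier, from 8.64 ± 0.269 to 20 ± 3.9 TPM (limma adjusted p = 0.00347). Against chow, where 5% of all genes passed, 5 of 20 were higher, and 1 without chow libraries 2 and 3. In the other 4 comparisons 0 of 20 passed in limma, with 2 to 11 at an unadjusted p below 0.05. In chow-alternating against chow 1 was lower after median-centring and 3 without chow libraries 2 and 3.

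Of 24 tested genes for other proteins that the liver secretes as hormones or carriers, 5 rose in the chow-alternating group against chow, where 1.16% of all genes passed. In the ketogenic-alternating group against chow 4 rose and 1 fell (5% of all genes passed), and 2 fell against the chow-alternating group (5.04%). After median-centring these counts were 4 higher, 3 higher with 2 lower, and 3 lower. Lect2, a chemotactic hepatokine, was 98.8 ± 17.1 TPM on chow, 174.0 ± 14.3 TPM in chow-alternating (limma adjusted p = 0.0234) and 191.7 ± 11.9 TPM in ketogenic-alternating livers (limma adjusted p = 0.00369). Fgl1, a fibrinogen-like secreted protein, was 289.6 ± 65.1 TPM on chow, 660.0 ± 103.8 TPM in chow-alternating (limma adjusted p = 0.0109) and 626.0 ± 129.2 TPM in ketogenic-alternating livers (limma adjusted p = 0.00965). Ahsg, which encodes fetuin-A, rose in chow-alternating livers from 5168 ± 596.3 to 9429.5 ± 295.8 TPM (limma adjusted p = 0.00769). Orm1, an acute phase plasma protein, was 705.9 ± 188.1 TPM in ketogenic-alternating livers and lower than the 1374 ± 173.8 TPM of chow-alternating livers (limma adjusted p = 0.0127) and the 1319 ± 314.1 TPM of chow livers (limma adjusted p = 0.0424). Without chow libraries 2 and 3, the ketogenic-alternating counts against chow were 1 higher and 0 lower, and the chow-alternating count was 4 higher. High-fat against chow, where 1.06% of all genes passed, had 1 gene higher, Lcn2, named after its value was seen (25.8 against 6.78 TPM, limma adjusted p = 0.0349), and 2 higher with 1 lower after median-centring or rescaling. In the remaining comparisons, both with high-fat livers, 0 of 24 passed in limma, with 1 and 4 at an unadjusted p below 0.05.

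Some cell type markers moved in the same comparisons. Of 5 sinusoidal endothelial markers, Clec4g and Oit3 were higher in the ketogenic-alternating than in the chow-alternating group, where 5.04% of all genes passed. After median-centring, and likewise after rescaling, 1 of the 5 was higher. The sums of these markers per library were 99.5 to 142.4 against 55.5 to 80.4 TPM. Of 8 hepatocyte markers, Ttr and Tat were lower and Apoa1 higher in the ketogenic-alternating group against chow, where 5% of all genes passed. Without chow libraries 2 and 3 the counts were 1 lower and 0 higher. Apoa1 was also higher than on chow in high-fat (limma adjusted p = 0.0499) and chow-alternating livers (limma adjusted p = 0.023). Of all genes 1.06% and 1.16% passed there. After median-centring 0 hepatocyte markers were higher in these 3 comparisons with chow. Of 3 tested markers of recruited macrophages, Cd9 was lower in the ketogenic-alternating group than on chow (22.7 against 49.8 TPM, limma adjusted p = 0.0428). Without chow libraries 2 and 3, 0 of these markers passed. The part of these differences, and of the lower hepatocyte marker sums of ketogenic-alternating livers, in the hepatokine results was not tested.

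Fgf21 was set against each of the other 8 genes over the 16 libraries, on log2(TPM + 1) values. Permutations over all libraries crossed the diets, so those p-values also take in differences between diet groups. Inhbe was higher where Fgf21 was higher, with a Pearson r of 0.734 (permutation p = 0.00117, adjusted over 8 relations 0.00936) and a Spearman rho of 0.709 (permutation p = 0.00281). Without the 2 libraries farthest from the median of Fgf21 the r was 0.609. On deviations from diet means it was 0.43 (permutation p = 0.0895, adjusted 0.358), which did not pass. Gdf15 had an r of 0.454 over all libraries (permutation p = 0.0768, adjusted 0.205), a rho of 0.376 (p = 0.151) and 0.193 without the 2 farthest libraries. Within diets its r was 0.801 (permutation p = 0.0092, adjusted 0.0736). In the ketogenic-alternating group the highest library for both Fgf21 and Gdf15 was library 1 and the lowest for both was library 3. Angptl8 had an r of -0.552 (permutation p = 0.0271, adjusted 0.108), a rho of -0.547 (p = 0.0304), -0.355 without the 2 farthest libraries and 0.237 within diets (adjusted 0.819). The other 5 genes had adjusted p of at least 0.815.

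**Figure D3:**
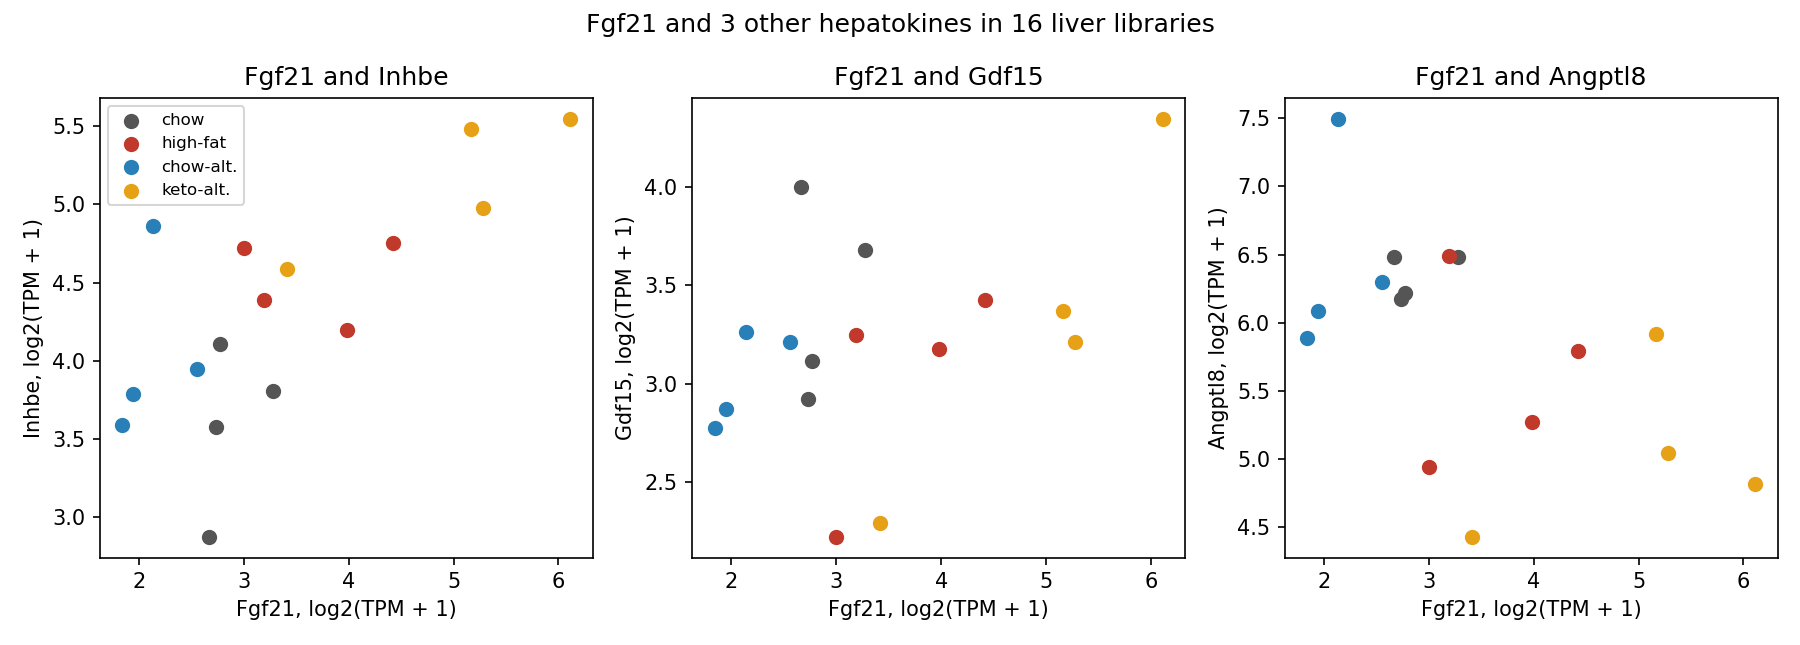
Fgf21 (horizontal axes) against Inhbe, Gdf15 and Angptl8 (vertical axes), all as log2(TPM + 1), with 1 point per library coloured by diet. Over all 16 libraries the Pearson r is 0.734 for Inhbe, 0.454 for Gdf15 and -0.552 for Angptl8, and on deviations from diet means 0.43, 0.801 and 0.237.

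The make-up of the libraries moved with 2 of the 9 genes. The share of all genes that would pass was not counted, so this count is no result about the set. TPM has a fixed sum per library, so a larger share in some genes leaves less for the others. Klb was lower where the 20 most abundant genes took a larger share of the TPM, with an r of -0.821 (permutation p = 4e-05, adjusted over 9 relations 3.6e-04), a rho of -0.779 (p = 6.3e-04), -0.697 without the 2 farthest libraries, and -0.795 within diets (permutation p = 0.00532, adjusted 0.0479). Inhbe had an r of -0.701 (permutation p = 0.00205, adjusted 0.00923), a rho of -0.694 (p = 0.00346), -0.609 without the 2 farthest libraries, and -0.557 within diets (p = 0.0325, adjusted 0.146). Fgf21 had an r of -0.399 (permutation p = 0.127, adjusted 0.259) and -0.142 within diets. For Inhbe, the ketogenic-alternating difference from chow was 1.53 after rescaling without the most abundant and mitochondrial genes (limma adjusted p = 0.00837) and 1.41 after median-centring (0.00827). Without the libraries above 33% it was 1.19 (0.0721).

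**Figure D4:**
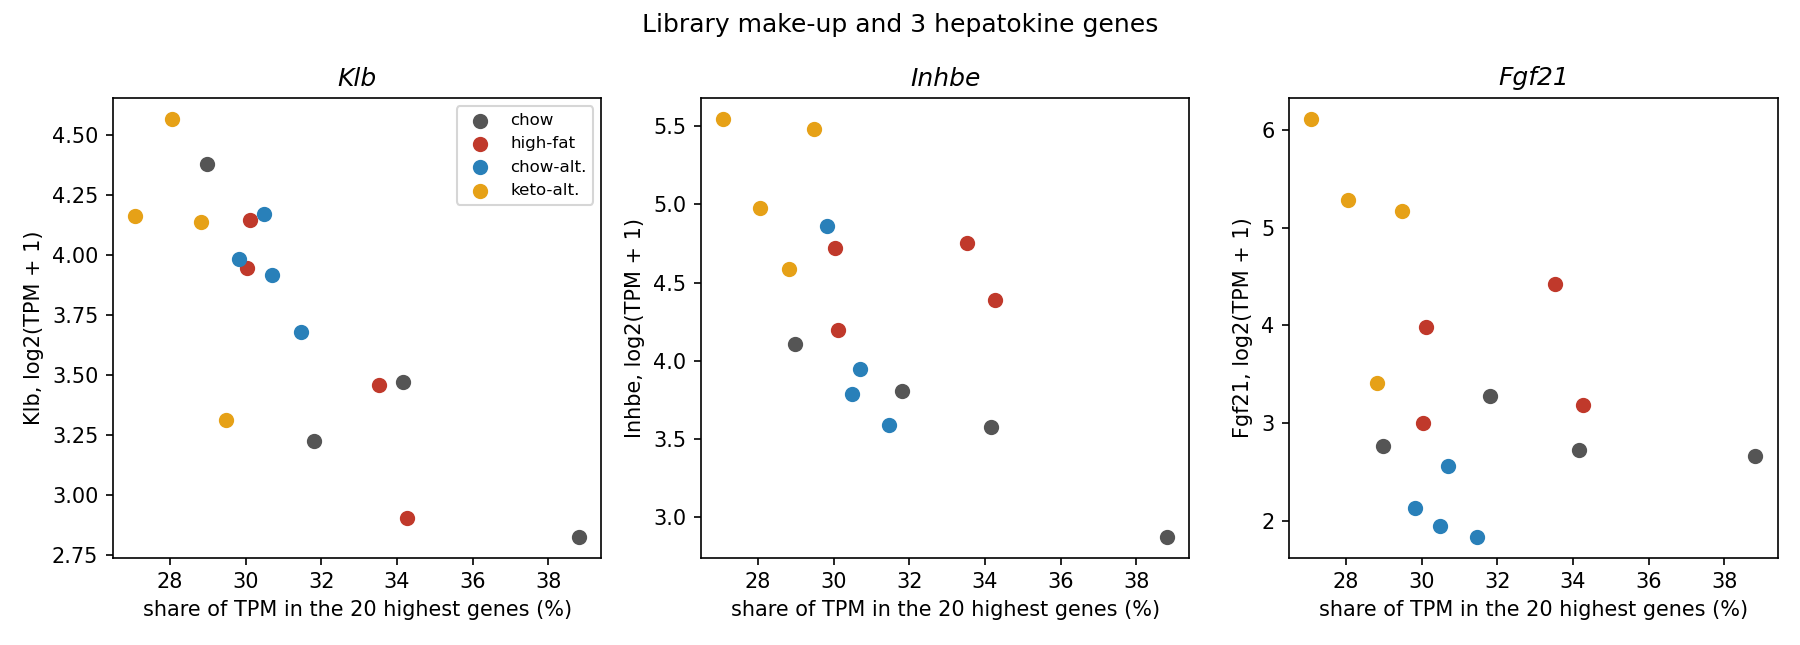
Klb, Inhbe and Fgf21 as log2(TPM + 1) (vertical axes) against the percentage of TPM in the 20 most abundant genes of the library (horizontal axes), with 1 point per library coloured by diet. Klb (r = -0.821) and Inhbe (r = -0.701) are lower at higher shares, and Fgf21 has an r of -0.399.

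At the level of transcripts, 5 of the genes (Fgf21, Angptl6, Angptl8, Inhbe and Inhbc) had a single transcript. The main coding transcript of Angptl4, ENSMUST00000002360, held 79.4% of the gene's TPM and a transcript annotated for nonsense-mediated decay, ENSMUST00000173869, held 19.0%. Gdf15 was 94.9% ENSMUST00000003808, and its other transcript reached 56.3% in 1 high-fat library. Klb was 97.5% ENSMUST00000031096, and Fst was divided between ENSMUST00000022287 (42.9%) and ENSMUST00000223640 (44.4%). The shares of 4 transcripts of Angptl4 and Gdf15 were tested between diets in 24 exact two-sided permutation tests of 4 against 4 libraries, of which 0 passed. The lowest p was 0.0857, and 0.0286 is the smallest p that this design allows. After adjustment over 24 tests, a single share at that smallest p could not pass, so the absence of calls is no result about the shares. The tests of the Gdf15 transcripts repeat each other, because their shares make up the whole gene. Fst reached 1 TPM in too few libraries outside chow for a test.

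Similarity of pattern is described by the Pearson r of log2(TPM + 1) over the 16 libraries, with no test. Closest to Fgf21 were Idh3g (r = 0.923), a subunit of a citric acid cycle enzyme, Acadl (0.915), the long-chain acyl-CoA dehydrogenase, and Ube2l6 (0.899). On deviations from diet means the closest were Rps15a (0.836), Ywhaz (0.814) and Gdf15 (0.801), and Fgf21 was in turn among the 3 closest to Gdf15, after Cox20 (0.868) and Dynlt1b (0.861). Closest to Angptl4 were Pck1 (0.879), the key enzyme of gluconeogenesis, Dnajc12 (0.848) and Hax1 (0.843) over all libraries, and Per1 (0.809), Mfsd2a (0.805) and Cebpd (0.791) within diets. Angptl8 was closest to Gstm6 (0.792), Tmem37 (0.781) and Phkg2 (0.757), and within diets to G0s2 (0.814), which inhibits the lipase ATGL, Tle6 (0.803) and H2-Q7 (0.765). Inhbe was closest to Nipsnap3b (0.915), the interferon regulator Irf7 (0.885) and Tlr12 (0.881), and within diets to Elavl1 (0.895), Ranbp6 (0.858) and Polr3f (0.848). Its neighbour Inhbc was closest to Pex11a, a peroxisome division gene, both over all libraries (0.889) and within diets (0.927), followed by Cdk18 (0.84) and Asap3 (0.835), and within diets by Pcgf6 (0.891) and Hsph1 (0.882). Klb was closest to Crkl (0.955), Reps2 (0.955) and Zfp65 (0.948), and within diets to Chp2 (0.972), Cnot1 (0.967) and Cep120 (0.966). For Gdf15 over all libraries the closest were Cox20 (0.795), Tubb2a (0.75) and Dynlt1b (0.748). For Angptl6 they were Timm17b (0.822), Tbcc (0.781) and Zscan2 (0.773), and within diets Junb (0.843), Timm17b (0.821) and Tbcc (0.802). For Fst they were Pop1 (0.895), Map4k4 (0.869) and Mef2d (0.859), and within diets Ccnj (0.919), Pop1 (0.918) and Zdhhc24 (0.917). These values share libraries and library make-up.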

How the data were processed

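Liver RNA was sequenced in 16 libraries, and the tables that the authors deposited give TPM for genes and for transcripts. Per the labels, the authors aligned reads with HISAT2 to mm10 and quantified with RSEM 1.1.17 on Ensembl release 96. The design text names FPKM, but each column sums to 1000000, so the plan for normalized values was applied to TPM. TPM keeps no depth, so the depth and counting error of each library are unknown. Each TPM also depends on the abundance of all other genes.

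Values were analysed as log2(TPM + 1), after removal of genes that reached 1 TPM in fewer than 4 of the 8 libraries compared. Fold changes therefore understate the change of low genes. Each of 6 comparisons used its own 8 libraries (the F-test used 16) in limma 3.58.1 (R 4.3.3), with a mean-variance trend, and p-values were adjusted by Benjamini-Hochberg over all genes tested. The threshold for a change was an adjusted p of 0.05. The fit was tested on simulated data. Single values were tested by exact or other permutation tests, all two-sided. Labels do not say that libraries are separate animals, so the spread behind the p-values may be technical.

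The 9 genes, gene lists and markers were chosen with earlier results of these data known. All 9 are named in every comparison, with up to 4 genes per list with the smallest adjusted p (the 2 most abundant where none passed) and the 3 most similar genes. Alternatives covered the pseudocount, the filter, median-centring, rescaling without the 20 most abundant and mitochondrial genes, a fit over 16 libraries, no trend, a replicate block, leaving out each library, and leaving out the 4 libraries above 33%. The counts of list genes under the other scalings and without those libraries, and the letters of the motifs, were chosen after seeing the data. Gene positions are those of the deposited table, which for 6 of the 9 genes equal GENCODE's on mm10 (not for Gdf15, Angptl4 and Fst), and promoters are from RefSeq (GRCm38.p6). A gene of the lists is not reported here and was left out of their counts.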

Additional observations from a re-analysis of the deposited data

Results flagged for a closer look

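Within 4 of 36 groups of 4 libraries, the highest library stood apart from the other 3 of its group by most of the group's range. Chance alone marks about 1 group in 20 only if values are normally distributed. The rule was applied to TPM and not on the log2 scale, so the number of groups marked is not read as more than chance. Fgf21 was 8.70 TPM in chow library 4, and 5.35 to 5.83 TPM in the other chow libraries. Angptl8 was 179.6 TPM in chow-alternating library 1, with 58.3 to 77.6 TPM in the others. Fst was 2.73 TPM in high-fat library 3, with 0.560 to 0.888 TPM in the others, and 2.50 TPM in ketogenic-alternating library 1, with 0.341 to 0.525 TPM in the others. Without chow-alternating library 1 the Angptl8 difference between chow-alternating and chow was -0.25 in place of 0.11.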

How the results depend on the processing

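Of 805 values under alternatives for 51 pairs of a gene and a comparison, 747 kept their direction and side of the threshold, 12 lost and 12 gained a call, and 34 changed sign, all of them in 15 pairs with no call. These totals include Fst in its comparisons with chow. Of the gained calls 2 are those of Fst in ketogenic-alternating against chow, which are not read. Fst is also counted in the numbers that follow. The number of the 9 genes that passed was 0 in high-fat against chow, and 1 (Angptl4) in a fit over 16 libraries and 0 to 1 without single libraries. It was 0 to 1 without single libraries in chow-alternating against chow (0 with all) and 1 to 3 in ketogenic-alternating against chow-alternating (1 with all). In ketogenic-alternating against chow it was 3, but 1 without the low-value filter, 0 without libraries above 33% and 1 to 4 without single libraries. The F-test passed 3, and 1 without the filter. The 4 transcripts tested became 2, and 24 tests 12, at shares of 10% to 90%, again with 0 passing. A single share at the smallest possible p could not pass there either. Over the alternatives, counts of all genes that passed were 19 to 399 in high-fat against chow (116 in the chosen fit), 1 to 32 in chow-alternating against high-fat (5), 1 to 22 in ketogenic-alternating against high-fat (4), 107 to 2513 in ketogenic-alternating against chow-alternating (554), 3 to 242 in chow-alternating against chow (126) and 181 to 1620 in ketogenic-alternating against chow (555). No library of ketogenic-alternating against chow-alternating is above 33%, so that alternative gives no value there. The causes were not tested.

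Of 24 same-numbered pairs of libraries, 4 had deviations from diet means correlated above 0.1 (range -0.597 to 0.407). Differently numbered pairs were not compared, so whether replicate numbers pair the libraries was not tested. With the replicate block, 1 gene passed in chow-alternating against high-fat (Fgf21, adjusted p = 0.021), 2 in ketogenic-alternating against chow-alternating (also Inhbe, 0.0397) and 4 in ketogenic-alternating against chow. The fourth was Fst, which passed the low-value filter only through its high chow libraries, so that call is not read.

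Signs changed only in log2 differences of at most 0.32 in the chosen fit. With median-centring, Angptl6 was 0.01 in high-fat against chow and in chow-alternating against chow, Gdf15 was -0.02 in chow-alternating against high-fat, and Klb was -0.07 and Angptl4 -0.09 in ketogenic-alternating against chow-alternating. With rescaling, in chow-alternating against high-fat, Gdf15 was -0.02 and Angptl6 0.00. Without libraries above 33%, Klb was -0.11, Angptl6 -0.07 and Inhbc 0.00 in chow-alternating against high-fat, and Inhbc -0.05 in ketogenic-alternating against chow. Without single libraries, the ranges were -0.08 to 0.44 (Klb) and -0.16 to 0.10 (Angptl6) in high-fat against chow. They were -0.25 to 0.15 (Gdf15), -0.12 to 0.17 (Angptl6) and -0.01 to 0.44 (Inhbc) in chow-alternating against high-fat, and -0.06 to 0.62 (Gdf15) in ketogenic-alternating against high-fat. In ketogenic-alternating against chow-alternating they were -0.07 to 0.35 (Klb), -0.07 to 0.61 (Gdf15) and -0.02 to 0.17 (Angptl4). In chow-alternating against chow they were -0.08 to 0.11 (Angptl6), -0.25 to 0.29 (Angptl8) and -0.23 to 0.09 (Inhbc), and in ketogenic-alternating against chow -0.47 to 0.21 (Gdf15).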
